A study of Homo sapiens with 13 samples.

Results

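Of the 4604 genes named by the array annotation, 4 are described here: 2 immunoglobulin heavy chain genes, IGHM and IGHA1, and 2 genes for proteins that help heavy chains assemble, JCHAIN (older symbol IGJ) and MZB1. They were chosen by annotated gene symbol, and all 4 were measured. The array carried 22 features (spotted cDNA clones) for them, 6 for IGHM, 8 for IGHA1, 5 for JCHAIN and 3 for MZB1. Of these, 10 entered the tests, 3 for IGHM, 3 for IGHA1, 2 for JCHAIN and 2 for MZB1, having values on 10 or more of the 13 arrays and on 2 or more of the 3 in each KMS12 time window.

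An antibody is built from heavy and light chains that are translated into the endoplasmic reticulum, where chaperones hold unpaired heavy chains until they are folded and joined. IGHM encodes the constant region of the mu heavy chain, which defines IgM, and IGHA1 that of the alpha heavy chain of IgA1. JCHAIN encodes the joining chain, which links antibody units into the pentamer of IgM and the dimer of IgA and is made mainly by antibody-secreting cells. MZB1, also known as pERp1, is a resident of the endoplasmic reticulum that works with the chaperone GRP94 in the folding and oxidation of mu chains.

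The study used 3 human myeloma cell lines, H929, SKMM1 and KMS12, each infected with an inducible hairpin against IRF4 or with one against luciferase, shluc, as the control. Myeloma arises from plasma cells, which depend on the transcription factor IRF4. Each array held RNA from both cultures of 1 line, labelled with Cy5 for the IRF4 hairpin and with Cy3 for the control, so a gene below 0 on the log2 scale had less mRNA under the IRF4 hairpin. H929 with hairpin 2046 had 2 arrays at day 4 of doxycycline, SKMM1 with hairpin 2046 had 1 at day 4, and KMS12 had 3 uninduced arrays, 3 at days 2-3, 3 at days 4-5 and 1 at day 7. KMS12 cells were followed in 3 culture series, each named after its hairpin construct, 1332 (uninduced and days 3, 5 and 7), 1332b (uninduced and days 2 and 4) and 2046 (uninduced and days 2 and 4), so day within a window and hairpin cannot be told apart from the series. Induced cultures of both hairpins received 20 ng/ml doxycycline, and H929 and SKMM1 have no uninduced array here. Every culture on these arrays was infected, and the labels do not say whether repeats were separate cultures, so the spread behind each p-value may be technical.

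The targeted gene followed the labels on every array. IRF4 stood at 24.6% to 66.5% of the control on the 10 induced arrays and at 109% to 118% on the 3 uninduced arrays. Between 7140 and 14228 features were measured per array. All values were centred on each array's median, and a gene's value is the mean of its tested features. Since only ratios are used, these values give neither the level of an immunoglobulin mRNA in a line nor the heavy chain class it makes. Of 10 plasma cell markers, 9 were measured and only as ratios, which do not test the labelled cell type. In RNA from whole cultures, fewer cells that make a transcript and less of it per cell cannot be told apart.

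The RefSeq promoter table (GRCh38.p14) held entries for 2 of the 4 genes, JCHAIN and MZB1. Their 250 bases before the annotated start are shown because the hairpin target, IRF4, is a DNA-binding factor and these are the transcripts compared below. The JCHAIN window lies at chr4:70666509-70666758 and the MZB1 window at chr5:139389914-139390163, both on the minus strand and printed 5′ to 3′ in the direction of transcription.
JCHAIN: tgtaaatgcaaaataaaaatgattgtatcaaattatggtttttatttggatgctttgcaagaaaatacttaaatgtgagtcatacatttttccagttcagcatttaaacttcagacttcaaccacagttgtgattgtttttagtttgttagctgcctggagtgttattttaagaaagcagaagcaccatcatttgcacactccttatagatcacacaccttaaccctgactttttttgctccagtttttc
MZB1: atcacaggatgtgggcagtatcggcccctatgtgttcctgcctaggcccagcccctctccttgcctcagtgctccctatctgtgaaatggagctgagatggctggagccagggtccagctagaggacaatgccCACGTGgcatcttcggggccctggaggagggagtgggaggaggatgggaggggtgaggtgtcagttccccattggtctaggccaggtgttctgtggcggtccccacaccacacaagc
Capitals mark the only match, in either window and on either strand, to any of 4 motifs searched. The interferon response core GAAANNGAAA was present in 3.02% of 35116 promoter windows of the same length, the composite ETS and IRF core GGAANNGAAA in 2.41%, the octamer ATGCAAAT in 1.63% and the E-box CACGTG in 6.34%. MZB1 held the E-box 117 bases before its start, and JCHAIN held none of the 4. A match here is only a match of letters, and the absence of one describes this window alone.

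**Figure D1:**
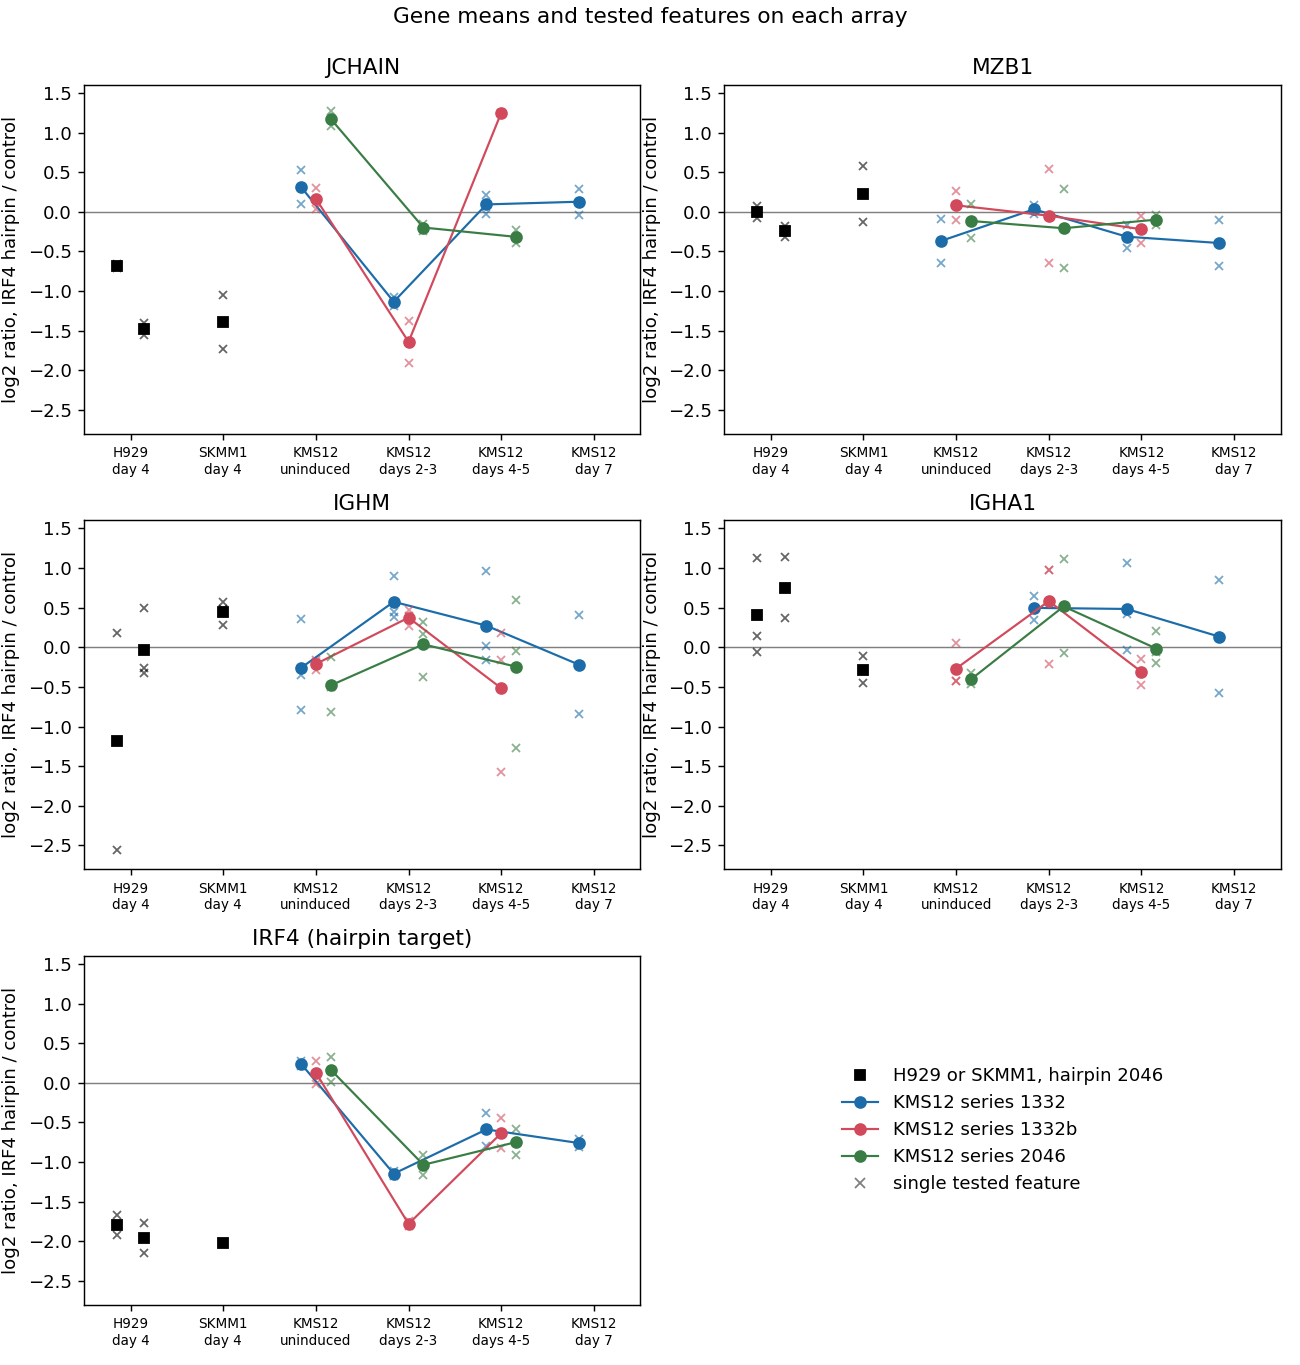
Centred log2 ratio (IRF4 hairpin over control hairpin, y axis) of the 4 genes and of IRF4 by line and time (x axis). Circles joined by lines are gene means of a KMS12 culture series, squares are H929 and SKMM1 arrays and crosses are single tested features. The JCHAIN gene mean lies at -1.64 to -0.20 on the 3 arrays at days 2-3 and at 0.17 to 1.17 on the uninduced arrays. The MZB1 gene mean stays between -0.39 and 0.22 on all 13 arrays.

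JCHAIN had the widest spread of the 4 genes, with lower values at days 2-3 of induction in KMS12 than in uninduced cells. At days 2-3 its log2 ratio was -1.14 in series 1332, -1.64 in series 1332b and -0.20 in series 2046, against 0.31, 0.17 and 1.17 in the same series uninduced. All 3 arrays at days 2-3 lay below all 3 uninduced arrays, as percent of control 45.5%, 32.1% and 87.2%, against 124%, 112% and 225%. The uninduced array of series 2046 was high before any doxycycline, so the value near the control at day 2 in that series still gave a difference of -1.37 from its uninduced partner.

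The mean difference for JCHAIN was -1.54 (SE 0.46, 95% interval -2.56 to -0.52), or 2.91-fold lower at days 2-3. It missed the threshold of 0.05 in limma's test, with a Benjamini-Hochberg adjusted p of 0.0863 over 4728 genes and unnamed features. No member passed, and neither did any gene, so the share called was 0%. Before adjustment, 25.8% of all genes had p under 0.05 in this comparison. Groups that do not overlap were common too: 16.9% of genes had every array at days 2-3 below every uninduced array and 16.3% had every one above, and JCHAIN is 1 of the first set. Within the series the difference was -1.45 in 1332, -1.81 in 1332b and -1.37 in 2046. IRF4 itself differed by -1.39, -1.91 and -1.20 in those series. Both genes had their largest difference in 1332b, but the JCHAIN values of the 3 series lay within its SE of 0.46 of each other.

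The adjusted p of JCHAIN moved in both directions with single arrays, and with the centring. Without the day 2 array of series 2046, the difference was -1.94 (SE 0.46) with a limma adjusted p of 0.0189, where 13.8% of all genes were called. Leaving out others weakened it, to -1.23 (adjusted p = 0.248) without the uninduced array of series 2046 and to -1.22 (adjusted p = 0.242) without the day 2 array of series 1332b. Without the uninduced or the day 3 array of series 1332 the adjusted p was 0.209 or 0.187, and without the uninduced array of series 1332b it was 0.0871. With no centring the difference was -1.75 with an adjusted p of 0.0487, where 7.17% were called.

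Both tested JCHAIN features gave the same picture at days 2-3. Feature 19370 differed by -1.60 (SE 0.36) and feature 34350 by -1.49 (SE 0.50) at days 2-3 against uninduced. At days 4-5 against uninduced they were further apart, at -0.83 (SE 0.40) and -0.05 (SE 0.50). For days 4-5 against days 2-3 they gave 0.77 and 1.44. Over the 12 arrays that measured both, they correlated at r = 0.95 and had the same sign on 10. The 3 sparser features were less alike. At day 3 of series 1332, feature 26361 stood at 0.25 and feature 23859 at -0.52, against -1.08 and -1.19 for the tested ones. Feature 25148 read -3.22 on the uninduced array of series 1332, where the other 4 lay between 0.10 and 0.53.

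**Figure D2:**
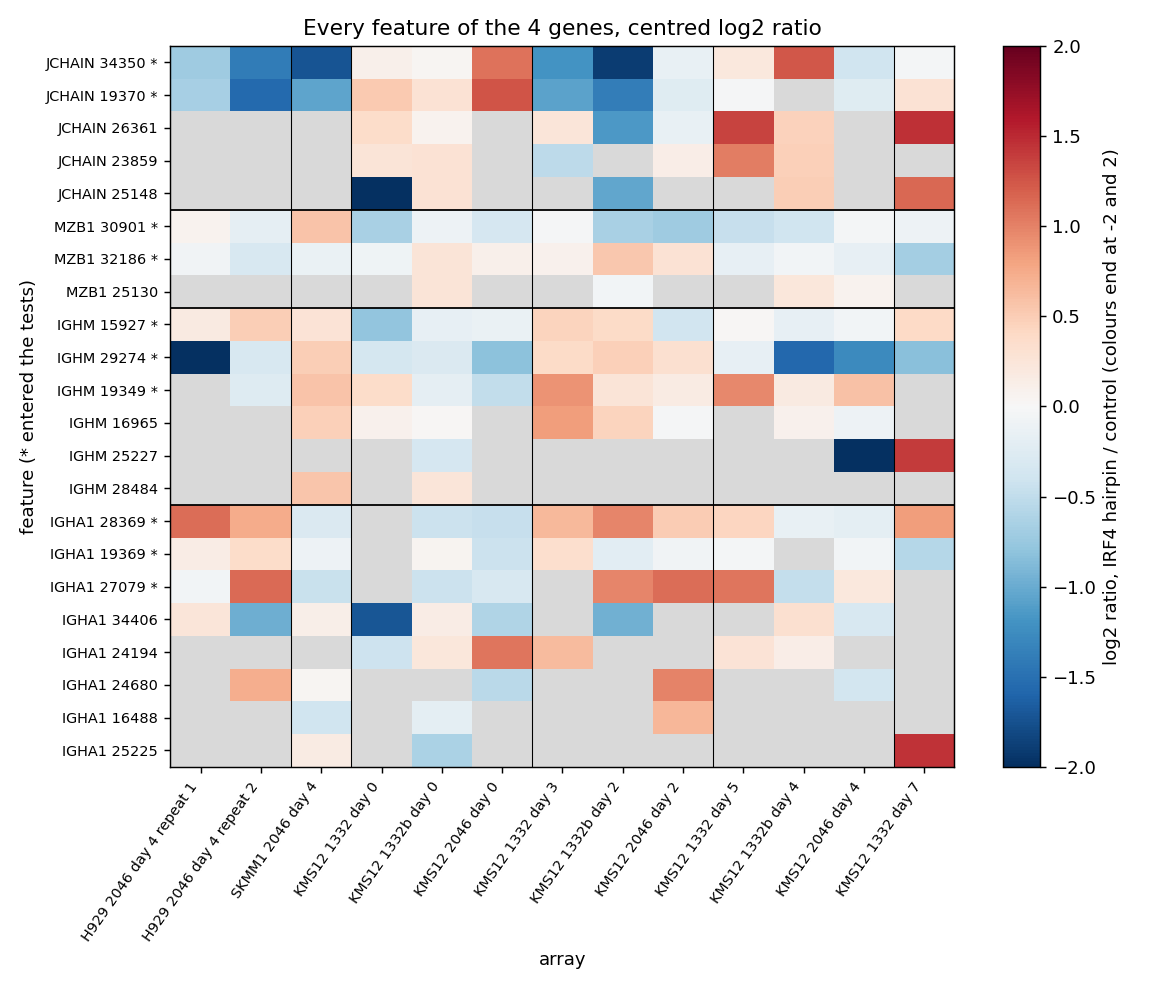
Centred log2 ratio of each of the 22 features (rows, named by gene and feature number) on the 13 arrays (columns). Blue is lower and red is higher in the IRF4 hairpin culture, colours end at -2 and 2, grey cells have no value and stars mark the 10 features that entered the tests. The 2 tested JCHAIN features share their pattern, and the tested IGHM, IGHA1 and MZB1 features differ among themselves.

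At days 4-5 the 3 KMS12 series parted for JCHAIN. Its log2 ratio was 0.09 in series 1332 at day 5, 1.25 in series 1332b at day 4 and -0.32 in series 2046 at day 4, a mean of 0.34 ± 0.81 against 0.55 ± 0.54 in uninduced cells (SD, n = 3 each). The difference from uninduced cells was -0.21 (SE 0.46, 95% interval -1.23 to 0.81, adjusted p = 0.942 by limma), and again 0% of genes were called. By series it was -0.22, 1.08 and -1.49, and the groups overlapped. Without the day 4 array of series 2046 it turned to 0.12, and without the uninduced array of that series to 0.10. The value of 1.25 rests on feature 34350 alone, because feature 19370 is blank on that array, and the 3 sparser features read 0.47 to 0.49 there. The 3 arrays were close for IRF4, at 66.5%, 64.4% and 59.5% of control.

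Against days 2-3, JCHAIN at days 4-5 was 1.33 log2 units higher (SE 0.46, 95% interval 0.32 to 2.35), a 2.52-fold difference with a limma adjusted p of 0.206. No gene was called in this comparison (0%). In series 1332 and 1332b the later array was higher by 1.23 and 2.89, and in series 2046 the difference was -0.12. Without the day 2 array of series 2046, it was 1.73 with an adjusted p of 0.0429, where 7.61% of all genes were called. Leaving out the day 4 array of series 1332b gave 0.88 (adjusted p = 0.515), and leaving out the day 2 array of that series gave 1.01 (adjusted p = 0.502). The single array at day 7, series 1332, read 0.13 for JCHAIN, or 109% of control, with IRF4 at 59.0%. The sparser features 26361 and 25148 read 1.46 and 1.14 on that array.

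In H929 and SKMM1, JCHAIN was lower than in KMS12 cells at days 4-5. The log2 ratios were -0.69 and -1.48 in H929 and -1.39 in SKMM1, against 0.09, 1.25 and -0.32 in KMS12, so all 3 arrays of H929 and SKMM1 lay below all 3 of KMS12. As percent of control, H929 stood at 62.2% and 35.9% and SKMM1 at 38.2%, against 107%, 238% and 80.3% in KMS12. IRF4 was also lower in these lines, at 28.9% and 25.7% in H929 and 24.6% in SKMM1.

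The difference for JCHAIN was -1.58 (SE 0.48, 95% interval -2.63 to -0.53), 2.98-fold lower in H929 and SKMM1, with a limma adjusted p of 0.0821 over 4124 genes. None of the 4 members passed here, while 2.21% of all genes did, 15 higher and 76 lower. IRF4 was among them, at -1.29 (adjusted p = 0.0272). Leaving out the KMS12 array of series 1332 at day 5 or of series 1332b at day 4 left 0 genes called, so the call for IRF4 was lost. The 91 calls became 3 without the KMS12 array of series 2046, 2 without SKMM1, 5 without H929 repeat 2 and 50 without H929 repeat 1. Non-overlap in the direction of JCHAIN was seen for 20.5% of genes. Fitted on its own, feature 19370 differed by -0.95 (limma adjusted p = 0.186) and feature 34350 by -1.75 (adjusted p = 0.0685). In that fit 3.82% of features were called. Feature 19370 has no value on the series 1332b array at day 4. With features measured on all 13 arrays only, JCHAIN rested on feature 34350 and passed, at -1.73 (adjusted p = 0.0384), where 13% of genes were called. Leaving out single arrays gave -1.12 (adjusted p = 0.230) without the day 4 array of series 1332b, -1.42 (adjusted p = 0.213) without SKMM1 and -1.38 (adjusted p = 0.207) without H929 repeat 2, and leaving out any 1 array of these groups did not bring JCHAIN past the threshold. No uninduced array of H929 or SKMM1 is at hand, so any difference between their hairpin and control cultures before induction stays in these values. In KMS12 series 2046 that difference was large for JCHAIN, at 225% of control uninduced.

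With hairpin 2046 at day 4 taken as 1 value per line, JCHAIN was below 0 in all 3 lines, -1.08 in H929 (mean of 2 arrays), -1.39 in SKMM1 and -0.32 in KMS12. The mean of -0.93 (SE 0.24) had a limma adjusted p of 0.247 against 0, and 0% of 4041 genes were called. A dye effect stays in a test against 0. H929 and SKMM1 alone gave -1.24 (SE 0.18, adjusted p = 0.0149), where 17.9% of genes were called. Without SKMM1 the mean was -0.70 (adjusted p = 0.782), and without H929 it was -0.85 (adjusted p = 0.715). In order of group means, JCHAIN ran from SKMM1 (-1.39, 1 array) through H929 (-1.08 ± 0.56, SD, n = 2) and KMS12 days 2-3 (-0.99 ± 0.73, n = 3) to KMS12 day 7 (0.13, 1 array), days 4-5 (0.34) and uninduced (0.55). Neighbours within the first 3 and within the last 3 differed by less than the spread between arrays.

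**Figure D3:**
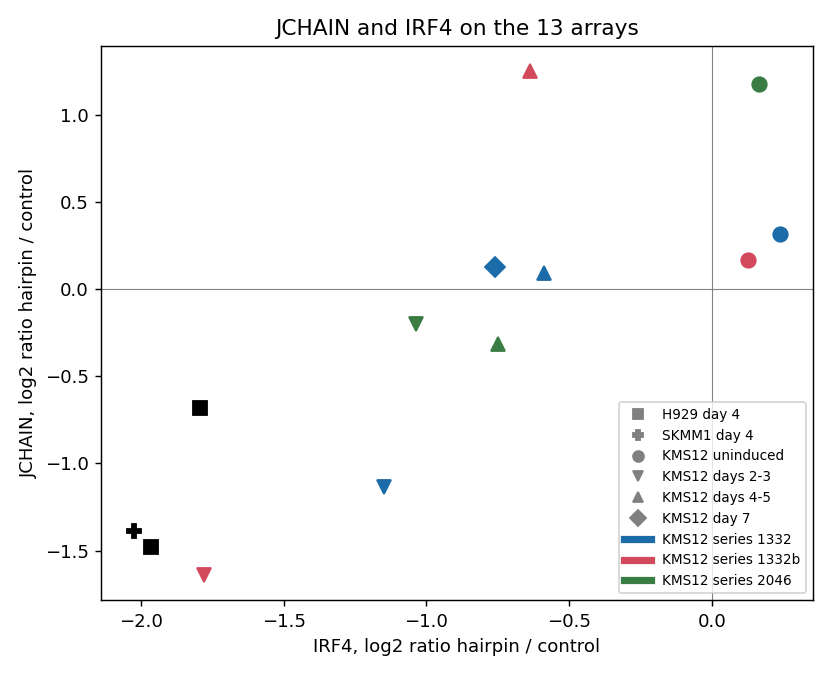
JCHAIN (y axis) against IRF4 (x axis), both as centred log2 ratio of IRF4 hairpin over control, 1 point per array. Symbols give line and time and colours give the KMS12 series, with H929 and SKMM1 in black. The 6 arrays with IRF4 below -1 all have JCHAIN below 0, and the uninduced arrays have both above 0.

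Over the 13 arrays, JCHAIN and IRF4 correlated at r = 0.83 (Pearson), rank 205 among 2832 named genes compared with JCHAIN. Arrays of a series share a hairpin construct and all 13 share the dye orientation, so the correlation is a description only. The 3 genes most like JCHAIN were SUCLG2, a subunit of succinyl-CoA ligase (r = 0.97 over 12 arrays), COPS4, a subunit of the COP9 signalosome (r = 0.96 over 13), and PDCD5 (r = 0.96 over 13). With the other members the correlation ran the opposite way, at -0.50 for IGHM, -0.62 for IGHA1 over 12 arrays and -0.43 for MZB1.

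The heavy chain genes differed from JCHAIN in sign at days 2-3. IGHA1 had log2 ratios of 0.50, 0.58 and 0.52 at days 2-3 in series 1332, 1332b and 2046, against -0.27 in series 1332b and -0.40 in series 2046 uninduced, with no tested value on the uninduced array of series 1332. IGHM had 0.57, 0.37 and 0.04 at days 2-3, against -0.26, -0.21 and -0.48 uninduced. Both genes thus lay higher on every array at days 2-3 than on every uninduced array that measured them, as did 16.3% of all genes.

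The difference for IGHA1 was 0.87 (SE 0.26, 95% interval 0.30 to 1.44), 1.83-fold higher at days 2-3, over 3 arrays against 2, with a limma adjusted p of 0.0863. For IGHM it was 0.64 (SE 0.31, 95% interval -0.03 to 1.32, adjusted p = 0.207). By series, IGHM differed by 0.83, 0.58 and 0.52, and IGHA1 by 0.85 in 1332b and 0.92 in 2046. Tested against 0 rather than against the uninduced arrays, IGHA1 at days 2-3 passed at 0.53 (adjusted p = 0.0451), where 19.1% of all genes were called. With no centring the differences from uninduced were smaller, 0.62 for IGHA1 (limma adjusted p = 0.155) and 0.44 for IGHM (adjusted p = 0.389).

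The features of IGHA1 disagreed in size, and in series 1332b also in direction. There feature 19369 went from 0.051 uninduced to -0.205 at day 2. In the same series 27079 went from -0.425 to 0.972 and 28369 from -0.431 to 0.98. Features 19369 and 27079 shared a sign on 3 of 9 arrays. Feature 28369 differed by 1.16 (SE 0.27) and feature 27079 by 1.42 (SE 0.50) at days 2-3 against uninduced, and feature 19369 by 0.21 (SE 0.26). Pairs of them correlated at r = 0.21 to 0.68. The sparser feature 34406 read -0.96 at day 2 of series 1332b, lower than its 0.155 uninduced in that series. It read -1.72 on the uninduced array of series 1332. The alpha 1 and alpha 2 heavy chain genes are nearly identical, and cDNA clones of immunoglobulin genes may bind transcripts of related chains, so these ratios are uncertain as to the exact gene.

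At days 4-5 both heavy chain genes overlapped with uninduced cells. IGHA1 had 0.48, -0.31 and -0.02 at days 4-5 in series 1332, 1332b and 2046, a difference of 0.39 (SE 0.26, 95% interval -0.18 to 0.96, limma adjusted p = 0.829), and 0.17 without the series 1332 array at day 5. IGHM had 0.27, -0.52 and -0.24, a difference of 0.15 (SE 0.31, 95% interval -0.52 to 0.82, adjusted p = 0.937), which became -0.06 without that array and 0.33 without the series 1332b array at day 4. Against days 2-3, the later arrays differed by -0.48 for IGHA1 (adjusted p = 0.292) and by -0.49 for IGHM (adjusted p = 0.406). The difference of the gene means was below 0 in each series, between -0.89 and -0.01 for IGHA1 and between -0.89 and -0.28 for IGHM. The IGHM features did not share it: 29274 differed by -1.39 (SE 0.49), 15927 by -0.21 (SE 0.27) and 19349 by 0.13 (SE 0.30). Without the series 1332b array at day 4 the differences were -0.30 for IGHA1 and -0.31 for IGHM. Day 7 gave 0.13 for IGHA1 and -0.22 for IGHM.

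The lines differed for the heavy chains without a common direction. IGHA1 was 0.40 and 0.75 in H929, a line known to secrete IgA, and -0.28 in SKMM1. IGHM was -1.19 and -0.03 in H929 and 0.45 in SKMM1, so the 2 H929 arrays were far apart. The value of -1.19 averages 2 features that oppose each other, 29274 at -2.56 and 15927 at 0.18, a gap of 2.74 on 1 array. Against KMS12 at days 4-5, H929 and SKMM1 differed by 0.08 for IGHM (95% interval -0.61 to 0.77, and -0.45 without the SKMM1 array) and by 0.09 for IGHA1 (95% interval -0.43 to 0.62). With hairpin 2046 in 3 lines, the means against 0 were -0.14 for IGHM (SE 0.24) and 0.09 for IGHA1 (SE 0.22).

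Feature 29274 also set the low IGHM values in KMS12 at days 4-5. It read -1.57 in series 1332b and -1.27 in series 2046 at day 4, where feature 15927 read -0.16 and -0.05 and feature 19349 read 0.18 and 0.59. At days 2-3 against uninduced the 3 features agreed in sign, with differences of 0.51, 0.55 and 0.87. At days 4-5 against uninduced they did not, with 0.30 for 15927, 0.68 for 19349 and -0.52 for 29274. Over all arrays their pairs correlated at r = 0.10 to 0.28. The genes most like IGHM were LYPD5 (r = 0.89 over 11 arrays), CD81, a tetraspanin (r = 0.88 over 13), and TUBA4A, an alpha tubulin (r = 0.88 over 10). For IGHA1 they were VWA8 (r = 0.92 over 11 arrays), USF2, a transcription factor that binds E-boxes (r = 0.90 over 12), and ADM, which encodes adrenomedullin (r = 0.85 over 12).

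The order of group means for IGHA1 was H929 (0.58 ± 0.25, SD, n = 2), KMS12 days 2-3 (0.53 ± 0.04, n = 3), day 7 (0.13), days 4-5 (0.05 ± 0.40, n = 3), SKMM1 (-0.28) and uninduced (-0.34 ± 0.10, n = 2). For IGHM it was SKMM1 (0.45), KMS12 days 2-3 (0.33 ± 0.27, n = 3), days 4-5 (-0.16 ± 0.40, n = 3), day 7 (-0.22), uninduced (-0.32 ± 0.14, n = 3) and H929 (-0.61 ± 0.82, n = 2). For both genes the first 2 groups differed by less than the larger SD given for them. From day 7 downward for IGHA1 and from days 4-5 downward for IGHM, neighbours differed by less than the SD at days 4-5.

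The gene mean of MZB1 stayed close to the control in every line and window. Its log2 ratios were 0.03, -0.05 and -0.21 at days 2-3 and -0.31, -0.22 and -0.10 at days 4-5 in series 1332, 1332b and 2046, against -0.37, 0.08 and -0.12 uninduced. H929 read -0.001 and -0.25, SKMM1 0.22 and the day 7 array -0.39. The groups overlapped in each comparison.

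The interval for MZB1 at days 2-3 against uninduced was -0.36 to 0.47 around a difference of 0.06 (SE 0.19, limma adjusted p = 0.861). At days 4-5 against uninduced it was -0.49 to 0.34 around -0.08 (adjusted p = 0.952), and against days 2-3 the difference was -0.14 (adjusted p = 0.722). H929 and SKMM1 against KMS12 differed by 0.26 (95% interval -0.17 to 0.69, adjusted p = 0.432), and hairpin 2046 in 3 lines gave a mean of -0.0002 (95% interval -0.42 to 0.42). These intervals are those of the gene mean and reach no further than 0.69 in either direction. The gene mean hides 2 features that did not move together, 30901 and 32186, which correlated at r = -0.39 and shared a sign on 6 of 13 arrays. At day 2 of series 1332b they read -0.64 and 0.54, and at day 2 of series 2046 -0.71 and 0.29, so the mean near 0 on those arrays comes from opposite values. In H929 and SKMM1 against KMS12, feature 30901 differed by 0.56 (95% interval 0.002 to 1.11, limma adjusted p = 0.197) and feature 32186 by -0.04. For days 4-5 against days 2-3 they differed by 0.16 and -0.43 (95% interval -0.88 to 0.01 for 32186). Most like MZB1 were BMAL1, a clock transcription factor (r = 0.81 over 10 arrays), F5, coagulation factor V (r = 0.79 over 12), and PML, the scaffold of nuclear bodies (r = 0.78 over 13).

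**Figure D4:**
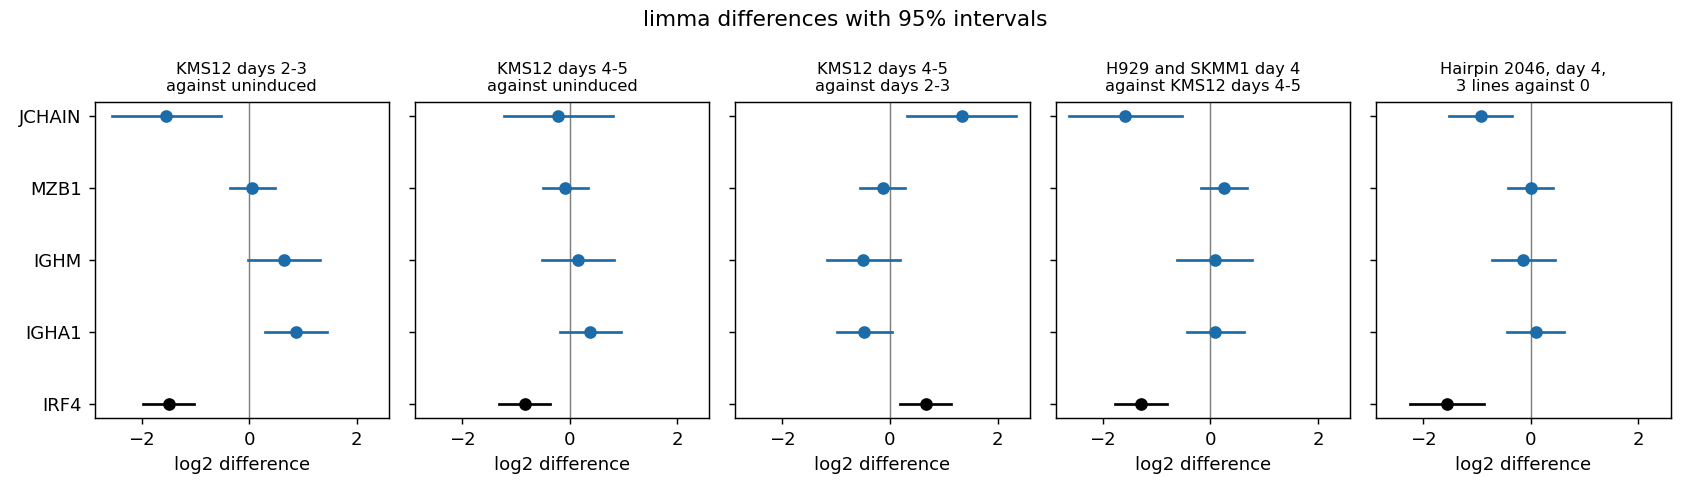
Differences in centred log2 ratio (x axis) for the 4 genes and IRF4 (rows) in the 5 comparisons (panels), first group minus second, or mean against 0 in the last panel. Points are limma estimates and lines their 95% intervals. The JCHAIN interval runs from -2.56 to -0.52 at days 2-3 against uninduced, and MZB1 spans 0 in every panel.

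Of other immunoglobulin genes, 2 entered the tests. IGHD, the delta heavy chain constant region, was higher at days 2-3 than uninduced by 0.67 (limma adjusted p = 0.0819), on the same side as IGHM and IGHA1, and its difference at days 4-5 was -0.22. IGLL1, the surrogate light chain lambda 5, differed by 0.29 and -0.01.

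Genes that fold and assemble immunoglobulin lay on the side of JCHAIN at days 2-3, though none passed. Of 25 listed genes 13 were tested; 10 were below 0 at days 2-3 against uninduced, with a median of -0.48, against 0.05 over all genes tested. HSP90B1, which encodes GRP94, the partner of MZB1, differed by -1.71 at days 2-3 and -0.73 at days 4-5. HSPA5 (BiP), which holds unpaired heavy chains, differed by -0.90 and -0.61, and DNAJC10, a disulfide reductase that works with BiP, by -1.50 and -0.58. CRELD2 was at 0.13 and 0.58. At days 4-5 the list median was -0.19, against 0.02 over all genes. In H929 and SKMM1 against KMS12, 11 of 12 were below 0, with a median of -0.38 and none passing.

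Entry into the endoplasmic reticulum showed similar values. Of 30 listed genes 15 were tested, none passed, and the median was -0.53 at days 2-3 and -0.19 at days 4-5 against uninduced. At days 2-3, 11 were below 0 and 4 above, DAD1, DDOST, SEC61A1 and SSR4, which are named after their values were seen, and at days 4-5 13 were below 0. In H929 and SKMM1 against KMS12, 8 of 14 were below 0 and 6 above, with a median of -0.44. SRP9, SRP54 and SRP72, subunits of the signal recognition particle, differed by -1.61, -1.16 and -1.24 at days 2-3, and TRAM1, a protein of the translocation channel, by -0.78.

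Among 20 regulators of immunoglobulin transcription and processing, 15 were tested. Their median was -0.17 at days 2-3 and -0.11 at days 4-5 against uninduced, and none passed. ELL2, the elongation factor that favours the secreted form of heavy chain mRNA, differed by -0.90 and -1.01 in KMS12. Between the lines, H929 and SKMM1 against KMS12 at days 4-5, the ELL2 ratio was higher by 1.92 (limma adjusted p = 0.0272). It and IRF4 were the 2 of 15 regulators that passed, where 2.21% of all genes did, and neither call held without the series 1332 array at day 5 or the series 1332b array at day 4. With hairpin 2046 in 3 lines, ELL2 was at 0.19 against 0 (adjusted p = 0.843). ETS1 was at -0.17 and 0.65 in KMS12 and BCL6, a repressor of the plasma cell programme, at 0.51 and 0.45. Of 16 receptors and membrane partners 5 were tested, with a median of 0.47 at days 2-3 and 0.08 at days 4-5 and none passing. Among them CD81 differed by 0.56 and 0.15, FCGR2B, the inhibitory Fc receptor, by 0.47 and -0.19, CR2 by 0.06 and 0.33, and TFRC, the transferrin receptor, by -0.76 and -0.48.

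Markers of other stages and cell types stood beside the higher IGHM and IGHA1 ratios at days 2-3. All 8 tested of 13 earlier B cell markers were above 0 at days 2-3 against uninduced, with a median of 0.60. Over all genes tested the median was 0.05, and 46.2% were below 0. With no centring the median over all genes was -0.15 and 61.7% were below 0, and the lists were not fitted that way. Among the markers were PAX5 at 1.15, CIITA at 1.05, BCL6 at 0.51 and CR2 at 0.06. The median level of that list per array was 0.10 to 0.50 at days 2-3 and -0.36 to -0.12 uninduced. Plasma cell markers had a median difference of -0.45, with 8 of 9 below 0, 1 of which is IRF4, the hairpin target. The others include TNFRSF17 (BCMA) at -0.78, SLAMF7 at -0.68 and PRDM1 (Blimp-1) at -0.59. The rest are named after their values were seen: CD38 at -0.26, XBP1 at -0.23, FCRL5 at -0.07 and SDC1, above 0, at 0.07. The median is the value of CD27, which had an SE of 1.97. T cell markers were above 0 in 6 of 6, with a median of 0.34, including ZAP70 at 0.51, CD3E at 0.39, LAT at 0.30 and CD8A at 0.15. Of 9 erythroid and stromal markers 3 were tested, all above 0, with a median of 0.47 (FN1 0.53, HBA1 0.47, HBB 0.45), and of 10 myeloid markers 2, CD68 at 0.39 and CSF3R at 0.20. At days 4-5 against uninduced, T cell markers were above 0 in 6 of 6 (median 0.35) and earlier B cell markers in 6 of 8 (0.39). Erythroid and stromal markers were above 0 in 3 of 3 (0.68) and myeloid markers in 2 of 2 (0.19). Plasma cell markers were below 0 in 8 of 9 (-0.34). In that window IGHM and IGHA1 overlapped with uninduced cells. No marker in these lists passed in either window, and their part in the values of the heavy chain genes was not tested.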

How the data were processed

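The authors deposited 1 table of log2 ratios (IRF4 hairpin in Cy5 over control in Cy3, per the labels) for 15246 features on 13 arrays. Per the labels' protocols, Trizol RNA was reverse transcribed with dye and hybridised to spotted Lymphochip cDNA arrays. The logarithm was taken as base 2. Not given in the sources used here are its base, the normalization, the background correction and the rule for blank spots. No dyes were swapped, so a dye effect cancels in differences between arrays and stays in tests against 0. The number of arrays limits the precision.

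Gene symbols came from the platform annotation, updated by gene identifier to RefSeq: 10169 features had 1 symbol. After the filter, 6879 features gave 4728 genes and unnamed features. The median over the 6879 tested features was subtracted on each array. The fit was limma 3.58.1 in R 4.3.3 (lmFit, eBayes, two-sided) with 6 group means over 13 arrays, Benjamini-Hochberg over all tested and a threshold of 0.05; hairpin 2046 in 3 lines was fitted apart, 1 value per line. The scripts were tested on simulated data.

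Series names pair the KMS12 arrays. Over 3325 genes, deviations from group means correlated within series at 0.158, 0.237 and 0.205 between uninduced and days 2-3. They correlated at 0.280, 0.119 and 0.119 between uninduced and days 4-5, but at 0.369, -0.124 and -0.086 between days 2-3 and days 4-5. Between different series, pairs with an uninduced array ran from -0.204 to 0.109. Pairs of days 2-3 with days 4-5 ran from -0.399 to 0.448, so the highest value of all was between 2 series.

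The members, gene lists and tests were chosen with earlier results of these data known. Named genes were the members, IRF4, the 3 most like each member by Pearson r over 10 or more arrays, and up to 4 per list by smallest p at days 4-5 against uninduced. Promoter windows of 250 bases were searched on both strands for 4 motifs. Alternatives were other centring, filters and gene summaries, a series block, tests against 0, a robust fit and leaving out each array. A block over only the 2 windows compared was chosen after seeing the data.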

Additional observations from a re-analysis of the deposited data

Results flagged for a closer look

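IGHM in H929 at day 4 and in KMS12 at days 2-3 lay on opposite sides of 0. Both H929 arrays were below 0 (-1.19 and -0.03) and all 3 KMS12 arrays at days 2-3 were above it (0.57, 0.37 and 0.04), a difference of group means of -0.94. The difference was not tested. In H929 repeat 1 the value rests on feature 29274 at -2.56, with feature 15927 at 0.18. No group held 4 or more arrays, so single arrays far from the rest of their group could not be looked for.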

How the results depend on the processing

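Over 231 alternative values for the 4 genes, 203 kept their direction and 225 their side of the threshold. JCHAIN kept its direction in 55 of 59, IGHM in 48 of 59, IGHA1 in 50 of 54 and MZB1 in 50 of 59. The count of members called, 0 in each comparison, became 1 at days 2-3 against uninduced with no centring (JCHAIN), tested against 0 (IGHA1) and without the series 2046 array at day 2 (JCHAIN); at days 4-5 against days 2-3 without that array (JCHAIN); in H929 and SKMM1 against KMS12 with features on all 13 arrays (JCHAIN); and for hairpin 2046 without KMS12 (JCHAIN). Leaving out arrays gave counts of 0 to 1. The cause of these moves was not tested, beyond the fewer features or arrays.

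Directions turned for small differences. With no centring MZB1 was -0.15 at days 2-3, IGHM -0.0048 at days 4-5 and -0.0029 in H929 and SKMM1 against KMS12, and IGHA1 -0.0011 for hairpin 2046. Against 0, MZB1 at days 2-3 was -0.075, and at days 4-5 IGHM was -0.16 and JCHAIN 0.34. With features on all 13 arrays, days 4-5 gave -0.022 for IGHM, 0.04 for JCHAIN and 0.012 for MZB1, and hairpin 2046 gave 0.0042 for MZB1. Feature medians gave -0.054 for IGHM in H929 and SKMM1 against KMS12, and the weak filter -0.0012 for IGHA1 with hairpin 2046.

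Leaving out each array gave ranges that crossed 0. For MZB1 at days 2-3 the range was -0.058 to 0.17. At days 4-5 against uninduced it was -0.064 to 0.33 for IGHM, -0.66 to 0.12 for JCHAIN and -0.19 to 0.030 for MZB1. In H929 and SKMM1 against KMS12 it was -0.45 to 0.37 for IGHM and -0.087 to 0.53 for IGHA1. For hairpin 2046, where whole lines were also left out, it was -0.43 to 0.10 for IGHM, -0.15 to 0.28 for IGHA1 and -0.11 to 0.061 for MZB1. There the ends 0.10, -0.15 and 0.061 came from leaving out the whole H929 line. Single arrays with this effect were the uninduced arrays, the KMS12 arrays at days 4-5, both H929 repeats and SKMM1.

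The series as a replicate block called 0 members in each KMS12 comparison and changed no call. For JCHAIN at days 2-3 it gave an adjusted p of 0.103, and 0.0648 with a replicate block on the arrays of those windows alone.

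Calls over all genes moved more. At days 2-3, 0 became 339 with no centring, 170 with features on all 13 arrays, 904 against 0, 653 without the series 2046 array at day 2, and 1 without the series 1332b array uninduced or at day 2. At days 4-5, 0 became 4 against 0 and 1 without the series 1332b uninduced array. Against days 2-3, 0 became 360 without the series 2046 array at day 2 and 1 without the 1332b one. In H929 and SKMM1, 91 became 294 with features on all 13 arrays, 19 with the weak filter and 0 to 50 without single arrays. For hairpin 2046, 0 became 737 without KMS12. Unadjusted p was under 0.05 for 1222, 282, 857, 1013 and 724 genes in the 5 comparisons as reported.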
